A study of Mus musculus with 9 samples.

Results

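Cadherins, protocadherins and catenins are the surface receptors and cytoplasmic linkers through which neighbouring cells hold on to and recognise each other, and their ribosome footprints are described here in 3 mouse striatal cell lines. Members were all rows of the count table whose symbol was Cdh or Ctnna, Ctnnb or Ctnnd followed by a number, began with Pcdh, or was Fat1 to Fat4, Dchs1 or Celsr1 to Celsr3. This rule used names alone and found 107 of 36410 rows, 49 outside and 58 inside the clustered protocadherin locus. The lines were control (STHdhQ7/Q7), in which both Htt alleles encode 7 glutamines in exon 1, HD-het (STHdhQ7/Q111), with 1 allele of 7 and 1 of 111 glutamines, and HD-homo (STHdhQ111/Q111), with 2 alleles of 111 glutamines. All are immortalized striatal cells, labelled with the strain C57/BL6, and all received cycloheximide, which stops elongating ribosomes, for 10 min before lysis. Ribosome-protected fragments of 26 to 32 nt were sequenced from 3 rounds of culture of each line. Each genotype was 1 cell line, so genotype and line cannot be told apart, and the tests measure the spread between rounds of culture and not between independently made lines.

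Classical cadherins bind the same or a similar cadherin on the next cell through their extracellular repeats. Inside the cell, p120-catenin (Ctnnd1) keeps them at the membrane, and beta-catenin (Ctnnb1) joins them to alpha-catenins (Ctnna1 to Ctnna3), which hold actin. Beta-catenin also carries Wnt signals to the nucleus once it escapes a destruction complex. Clustered protocadherins give single neurons a surface identity through the choice of promoters along 1 locus. The very large FAT and Dachsous cadherins bind each other across cells and, with the CELSR receptors, orient cells within a tissue. N-cadherin (Cdh2) is the main classical cadherin of neural progenitors, and E-cadherin (Cdh1) that of epithelia.

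Library totals lay between 22504543 and 41888701 counts, and a count of 3 in a library corresponded to 0.0714 to 0.142 CPM (counts scaled to a common library total, here after TMM, a factor for composition). Markers of mature striatal projection neurons were largely missing, since Drd1 and Drd2 had no count in any library, and the list of 10 such genes summed to 44.2 to 75.3 CPM. The 10 progenitor markers summed to 400.3 to 550.3 CPM (control), 1123 to 1256 (HD-het) and 31.5 to 43.9 (HD-homo), with Nes at 399.5, 1086 and 7.01 CPM on average. The single markers were split: in the test described below, 7 were tested against control. Of these, 3 were higher and 3 lower in HD-het cells (85.7% called, against 60.1% of all genes). In HD-homo cells 3 were higher and 4 lower (100% against 45.7%). Gsx2 and Hes5 had no count in any library. The 8 general neuron markers summed to 213 to 257 CPM (control), 139.8 to 154.8 (HD-het) and 147.9 to 157.3 (HD-homo). The mesenchymal lists had the highest sums of all marker lists in every line, though not every gene in them was detected. The 8 fibroblast and meningeal genes summed to 2613 to 4808 CPM (control), 16166 to 20516 CPM (HD-het) and 5442 to 6790 CPM (HD-homo), and the 8 pericyte and smooth muscle genes to 4423 to 5178, 10905 to 12958 and 361 to 593 CPM in the same order. Kcnj8 had no count in any library, Lum and Rgs5 had none in control cells and Thy1 had none in HD-het cells. The 8 endothelial genes summed to 255 to 344, 292 to 359 and 11.9 to 21.6 CPM, with Cldn5 and Emcn at 0 throughout, and the 8 epithelial genes to 35.3 to 42.1, 24.0 to 28.2 and 14.8 to 17.6 CPM, with Esrp1 at 0 throughout. Lists for astrocytes, oligodendrocytes and microglia summed to at most 27.0 CPM in any library, with Aqp4, Mog, Olig2, Cx3cr1 and Tyrobp at 0 in every library. The part of these shifts in the results below was not tested, and in lysed cultures fewer cells of a kind and less RNA per cell cannot be told apart.

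Counts were compared with edgeR's quasi-likelihood test over all 9 libraries, and every adjusted p below is from this test with Benjamini-Hochberg adjustment over all 12678 genes that passed the filter on low counts. Of the 107 members, 61 passed this filter, 35 had counts but did not pass and 11 had no count in any library. Where 3 means are given for a gene, they stand in the order control, HD-het, HD-homo. Among the 61, 48 were higher and 5 lower in HD-het cells than in control at an adjusted p under 0.05, and 8 did not pass. That is 86.9% called, against 60.1% of all genes tested. In HD-homo cells 12 members were higher and 24 lower than in control, 59.0% against 45.7% of all genes. Between the mutant lines, 3 members were higher and 49 lower in HD-homo cells than in HD-het cells, 85.2% against 67.5% of all genes. A member that passed the filter through 1 line alone had to differ. Over the 25 members with at least 10 counts in every library, 19 were higher and 1 lower in HD-het cells than in control, 3 higher and 10 lower in HD-homo cells than in control, and 1 higher and 20 lower in HD-homo cells than in HD-het cells. Of all 11071 genes with this minimum, 30.3% were higher and 29.2% lower in the first comparison. The shares were 21.4% and 20.9% in the second, and 33.5% and 32.3% in the third.

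The median fitted change of the 61 tested members was 1.71 (log2) in HD-het against control, -0.37 in HD-homo against control and -1.89 in HD-homo against HD-het cells, where the median of all genes tested was 0.02 in each. Members that passed the filter through HD-het cells alone enter this median, and over the 25 members with at least 10 counts in every library it was 0.83, -0.32 and -1.27. Footprints at 2-fold or more were found for 39 higher and 5 lower members in HD-het against control cells (13.9% and 6.91% of all genes) and for 12 higher and 19 lower in HD-homo against control cells (8.94% and 8.27%). For HD-homo against HD-het cells these were 3 higher and 44 lower (11.1% and 16.2%). There were 18 members higher in HD-het and lower in HD-homo cells, both against control, a pattern held by 6.79% of all genes, and both comparisons share the control libraries. The libraries of both lines did not overlap for 55 tested members in HD-het against control (71.2% of all genes), for 38 in HD-homo against control (55.5%) and for 53 between the mutant lines (69.5%). The plot of fitted changes by family shows the families side by side.

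**Figure D1:**
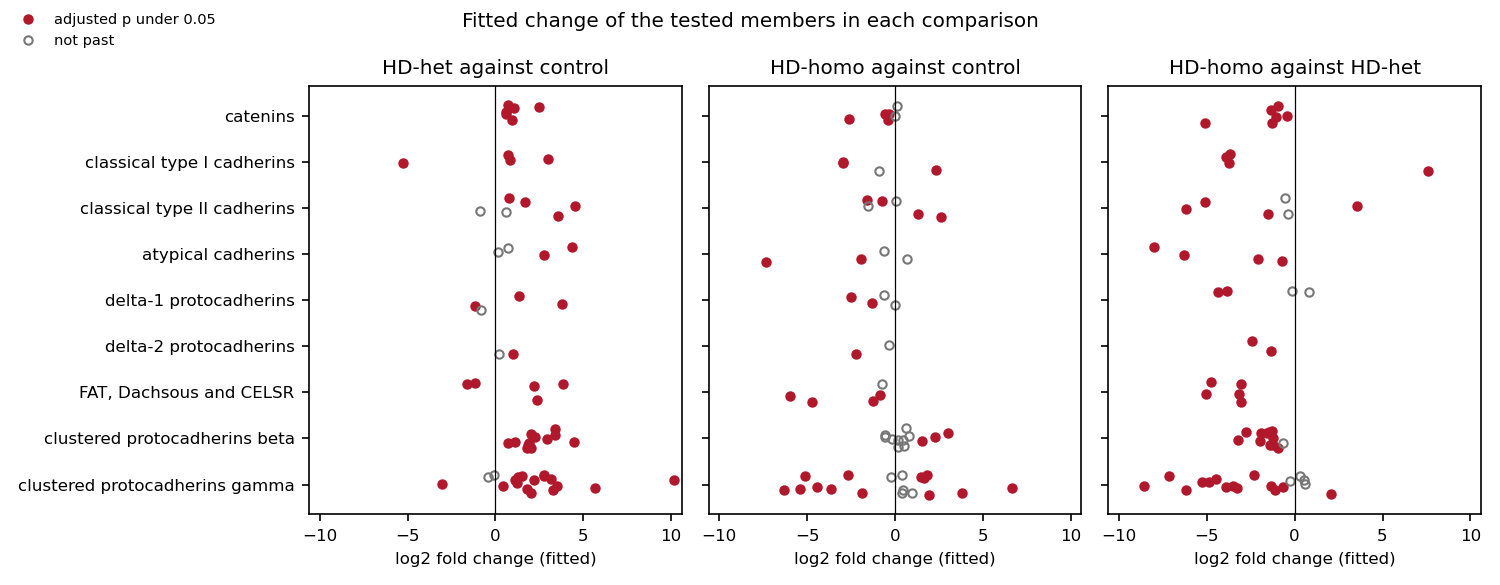
Fitted log2 fold changes of the 61 tested members in the 3 comparisons, 1 point per member, by family from top to bottom; filled red points passed an adjusted p of 0.05 and open points did not (vertical scatter within a family has no meaning). In HD-het against control most points lie right of 0, and in HD-homo against HD-het 49 of the called points lie left of it.

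N-cadherin carried most of the classical cadherin footprints and fell steeply in HD-homo cells. Cdh2, on chromosome 18, had 590.2, 651 and 374 CPM in the control libraries, 866, 846 and 1102 CPM in the HD-het libraries and 84.8, 57.6 and 65.0 CPM in the HD-homo libraries. No HD-homo library came near either other line, and the lowest HD-het library lay above the highest control library. Against control, Cdh2 rose in HD-het cells (log2 0.80 with SE 0.20, adjusted p = 0.00498) and fell 7.78-fold in HD-homo cells (log2 -2.96 with SE 0.22, adjusted p = 7.91e-07). Control replicate 3 was the lowest control library for Cdh2, as for 25 of the 31 members given here by library, where it was the lowest for 36.4% of all genes tested.

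E-cadherin was scarce everywhere and scarcest in HD-homo cells. Cdh1 (chromosome 8, 106603350 to 106670247, GRCm38) had 5.04, 5.76 and 3.46 CPM in control, 8.16, 6.85 and 9.08 CPM in HD-het and 0.946, 0.535 and 0.266 CPM in HD-homo cells. The HD-homo libraries were all below the control libraries (log2 -2.94 with SE 0.32, adjusted p = 2.23e-05), and without HD-homo replicate 1 the fall was -3.54. The rise in HD-het cells, 0.74 (SE 0.25, adjusted p = 0.0229), did not pass without control replicate 1 or 3 (0.76 and 0.56), without HD-het replicate 1 or 3 (0.71 and 0.63), or after correction for GC content and length (0.52).

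P-cadherin (Cdh3), another epithelial cadherin, ran the other way from its relatives. Its means were 0.624 ± 0.137 CPM (control), 0.0158 ± 0.0273 CPM (HD-het) and 3.12 ± 0.254 CPM (HD-homo) (SD, n = 3), with 0, 0 and 1 counts in the HD-het libraries. It was at least 5.53-fold below control in HD-het cells, taking 3 counts as the limit that a count of 0 allows, and rose in HD-homo against control cells (log2 2.32 with SE 0.25, adjusted p = 1.74e-05). Cdh3 was the only tested member that was lower in HD-het and higher in HD-homo cells, a pattern of 5.10% of all genes. Cdh15, the cadherin of muscle precursors, passed the filter at under 1 CPM and was called higher in HD-het cells, and Cdh4 did not pass it.

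Type II cadherins, which sort neurons and mesenchymal cells by type, differed between the lines in the levels of several members. Cdh6 (chromosome 15, 13028699 to 13176407) rose in HD-homo cells, with 4.16, 4.54 and 1.88 CPM in the control libraries, 1.59, 1.46 and 2.88 CPM in the HD-het libraries and 31.5, 7.84 and 27.0 CPM in the HD-homo libraries. All HD-homo libraries lay above all others, but replicate 2 stood well under replicates 1 and 3. The change against control was 2.63 (SE 0.47, adjusted p = 8.44e-04), and 3.03 without HD-homo replicate 2. Cdh6 also lay above its HD-het level (log2 3.53 with SE 0.51, adjusted p = 9.23e-05).

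Cdh10 (chromosome 15, 18818869 to 19016206) instead marked HD-het cells. It had 0.955, 1.12 and 0.489 CPM in control, 19.0, 20.6 and 22.1 CPM in HD-het and 0.278, 0.153 and 0.443 CPM in HD-homo cells. The HD-het level was 23.2-fold above control (log2 4.54 with SE 0.23, adjusted p = 8.75e-08), and HD-homo cells were below control (log2 -1.62 with SE 0.37, adjusted p = 0.00442). Cdh18 had 1.72, 1.86 and 1.09 CPM in control, 5.35, 5.99 and 3.97 CPM in HD-het and 4.34, 2.33 and 5.23 CPM in HD-homo cells, higher than control in both mutant lines (1.71 and 1.33 log2, adjusted p = 4.83e-04 and 0.00405). The mutant lines overlapped for Cdh18 and did not pass the test between them (adjusted p = 0.243). Its annotation overlaps Hnrnpa1l2-ps2, a separate row of the table with 229 to 1221 counts in every library.

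Cdh24, another type II cadherin, had 2.48, 3.35 and 2.90 CPM in control, 5.58, 4.59 and 5.01 CPM in HD-het and 1.92, 1.95 and 1.33 CPM in HD-homo cells, with all 3 lines apart (0.78 in HD-het and -0.74 in HD-homo against control, adjusted p = 0.00256 and 0.00838). Cdh11, the osteoblast and mesenchymal cadherin, was measured at 11.5, 11.5 and 8.27 CPM in control, 12.8, 12.1 and 23.3 CPM in HD-het and 9.04, 5.89 and 18.5 CPM in HD-homo cells. Its HD-het libraries lay above its control libraries, the HD-homo libraries overlapped with both, and it passed in no comparison (adjusted p = 0.166, 0.882 and 0.215). Without HD-homo replicate 3 it was lower in HD-homo cells than in HD-het cells by -1.08. Cdh22 averaged 0.135 ± 0.0716 CPM (control), 1.76 ± 0.249 CPM (HD-het) and 0.0440 ± 0.0395 CPM (HD-homo), and it lay at least 16.0-fold below HD-het in HD-homo cells.

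The make-up of the classical cadherins shifted with these changes. Cdh2 held 95.4 ± 0.252% of all type I and type II cadherin counts (control), 93.96 ± 0.0543% (HD-het) and 62.6 ± 9.36% (HD-homo) (SD, n = 3). Cdh6 held 0.606 ± 0.111%, 0.194 ± 0.0458% and 18.4 ± 7.42% in the same order. The coding sequences of the abundant type I and type II members are close in length, 2718 bp for Cdh2 and 2370 bp for Cdh6. In the HD-homo libraries the Cdh2 share was lowest in replicate 3 (53.6%) and highest in replicate 2 (72.3%), the replicate with the least Cdh6.

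**Figure D2:**
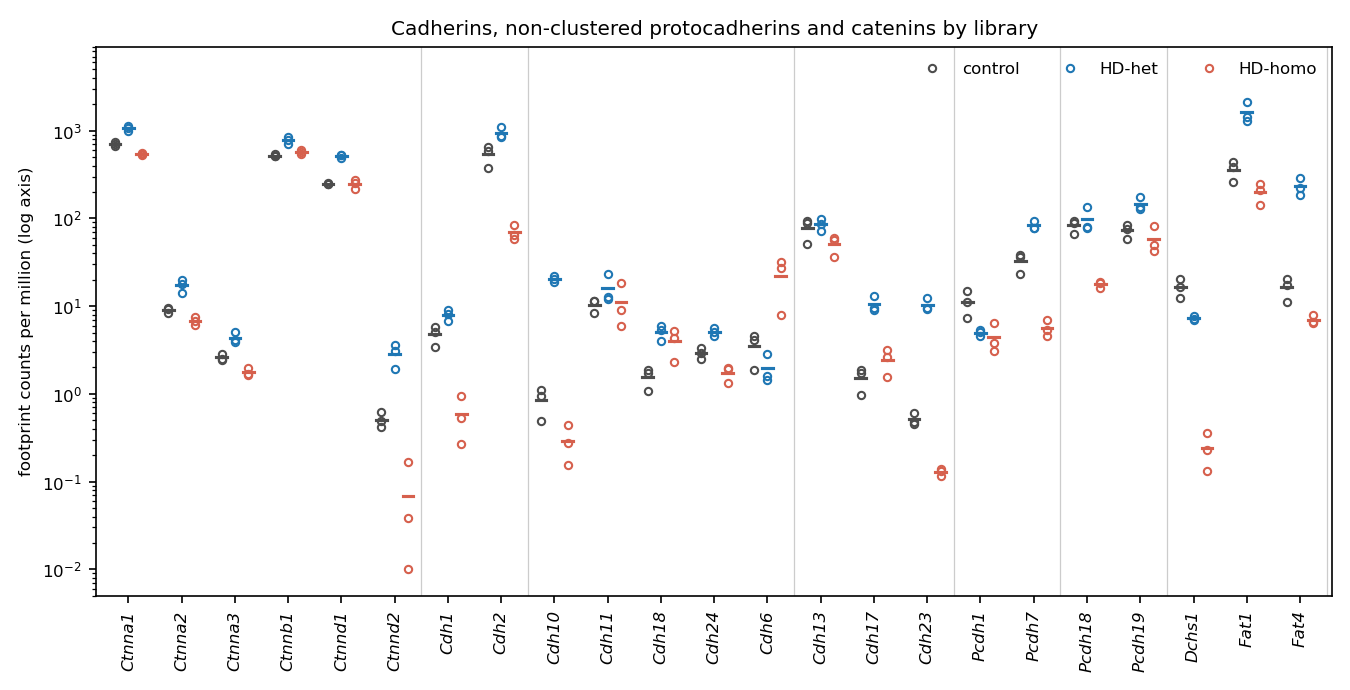
Footprint CPM of each library (open circles) and line means (bars) for the catenins and for the non-clustered members with a mean of at least 5 CPM in 1 line, on a log axis, with vertical lines between families; a library at 0 is drawn at 0.01. Cdh2, Pcdh7, Dchs1 and Fat4 are lowest in HD-homo cells, Cdh6 is highest there, and the abundant catenins Ctnna1, Ctnnb1 and Ctnnd1 lie within a narrower band.

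All 6 catenins rose in HD-het cells, and in HD-homo cells those that fell did so by at most 0.56 on the log2 scale, apart from Ctnnd2. Ctnnb1, beta-catenin (chromosome 9, 120933400 to 120960507), had 511, 537 and 513 CPM in the control libraries, 793, 856 and 703 CPM in the HD-het libraries and 596, 575 and 545 CPM in the HD-homo libraries. The HD-het libraries were the highest and the other lines differed little, at 0.59 (SE 0.09, adjusted p = 1.35e-04) in HD-het and 0.14 (SE 0.09, adjusted p = 0.219) in HD-homo against control cells. Ctnnd1, p120-catenin (chromosome 2, 84587096 to 84658977), had 245, 245 and 251 CPM in control, 534, 491 and 532 CPM in HD-het and 219, 272 and 253 CPM in HD-homo cells. It rose 2.10-fold in HD-het cells (log2 1.07 with SE 0.09, adjusted p = 2.82e-06), and the HD-homo libraries spanned the control libraries (adjusted p = 0.965). The Ctnnd1 sequence shares 70.0% of its 28-base words with other annotated genes, mostly with a read-through transcript that has no row in the table.

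Ctnna1, the alpha-catenin of most tissues, lies on chromosome 18 and had 735, 708 and 670.4 CPM in the control libraries, 1129, 1085 and 991 CPM in the HD-het libraries and 548, 556 and 531 CPM in the HD-homo libraries. All 3 lines were apart, with a rise in HD-het (log2 0.60 with SE 0.08, adjusted p = 5.80e-05) and a fall in HD-homo cells (log2 -0.37 with SE 0.08, adjusted p = 0.00246). The neural form Ctnna2 (chromosome 6, 76881637 to 77979815) had 9.43, 9.30 and 8.27 CPM in control, 17.8, 19.9 and 14.3 CPM in HD-het and 7.59, 6.04 and 6.78 CPM in HD-homo cells. Its rise in HD-het cells was 0.95 (SE 0.14, adjusted p = 1.40e-04). Its fall in HD-homo cells, -0.40 (SE 0.14, adjusted p = 0.0403), did not pass without control replicate 1 or 2 (-0.38 each), without HD-homo replicate 2 or 3 (-0.32 and -0.39), with total counts as the scale (-0.37) or after correction for GC content and length (-0.37).

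Ctnna3, the alpha-catenin known from heart, had 2.41, 2.88 and 2.52 CPM in control, 3.95, 5.03 and 4.07 CPM in HD-het and 1.97, 1.68 and 1.64 CPM in HD-homo cells. It rose in HD-het cells (log2 0.74 with SE 0.16, adjusted p = 0.00201), and its fall in HD-homo cells, -0.56 (SE 0.17, adjusted p = 0.0214), did not pass without control replicate 2 (-0.47) or HD-homo replicate 2 or 3 (-0.52 and -0.51). Ctnnd2, the neural delta-catenin, had 0.420, 0.618 and 0.489 CPM in control, 3.64, 3.05 and 1.94 CPM in HD-het and 0.167, 0.0382 and 0 CPM in HD-homo cells. It was the catenin that changed most, at 2.47 in HD-het (adjusted p = 1.19e-04) and -2.61 in HD-homo against control cells (adjusted p = 0.00496), and the latter was -4.40 without HD-homo replicate 1. The annotations of Ctnna1 and Ctnna2 overlap Lrrtm2 and Lrrtm1, synaptic adhesion genes whose rows held at most 131 and 10 counts.

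Per kilobase of coding sequence, Cdh2 was above Ctnnd1 and near Ctnnb1 in control and HD-het cells, and below all 3 abundant catenins in HD-homo cells. Cdh2 had 198 ± 53.4 CPM per kb in control cells beside 259 ± 11.97 for Ctnna1, 222 ± 6.26 for Ctnnb1 and 85.2 ± 1.14 for Ctnnd1 (SD, n = 3). In HD-het cells the levels were 345 ± 52.4 for Cdh2 and 393 ± 26.0, 335 ± 32.9 and 179 ± 8.33 for the catenins. In HD-homo cells Cdh2 was at 25.4 ± 5.19 CPM per kb, with Ctnna1 at 201 ± 4.59, Ctnnb1 at 244 ± 10.8 and Ctnnd1 at 85.5 ± 9.37. The spreads of Cdh2 and Ctnnb1 overlapped in the first 2 lines and were far apart in the third. Next after Cdh2 in HD-homo cells came Cdh13 (23.9 ± 6.03), Pcdhgc3 (17.8 ± 2.28), Pcdh19 (16.9 ± 6.03) and Fat1 (14.3 ± 3.80 CPM per kb), whose spreads overlapped. For Pcdhgc3 the length was the coding part that no other gene shares, while all counts of its row were used, so its place depends on that length.

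Among the atypical cadherins (Cdh13, Cdh16, Cdh17, Cdh23 and Cdh26), which lack a catenin-binding tail, Cdh13 was the most abundant. Cdh13, T-cadherin, which is anchored by a lipid (chromosome 8, 118140017 to 119324929), had 88.9, 93.4 and 51.1 CPM in control, 99.2, 87.1 and 71.4 CPM in HD-het and 60.5, 36.5 and 56.6 CPM in HD-homo cells. The control and HD-het libraries overlapped (adjusted p = 0.615). HD-homo cells were lower than HD-het cells by -0.75 (SE 0.24, adjusted p = 0.0149), a call lost without HD-het replicate 1 (-0.63) or HD-homo replicate 2 (-0.55). Cdh17, the liver and intestine cadherin, had 1.72, 1.86 and 0.978 CPM in control, 9.45, 9.10 and 13.1 CPM in HD-het and 2.64, 1.57 and 3.15 CPM in HD-homo cells and was 6.80-fold above control in HD-het cells (log2 2.77 with SE 0.27, adjusted p = 8.81e-06).

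Cdh23, the tip-link cadherin of hair cells (chromosome 10, 60302748 to 60696513), had 0.611, 0.476 and 0.451 CPM in control, 9.56, 9.35 and 12.3 CPM in HD-het and 0.139, 0.115 and 0.133 CPM in HD-homo cells. It was 20.2-fold above control in HD-het cells (log2 4.34 with SE 0.19, adjusted p = 3.00e-08) and lower than control in HD-homo cells (log2 -1.93 with SE 0.34, adjusted p = 7.98e-04). Vsir, an immune checkpoint gene whose annotation overlaps that of Cdh23, had 45, 71 and 44 counts in the HD-het libraries and at most 3 in any other, so its row moved with that of Cdh23. How fragments of overlapping genes were assigned is not given in the sources used here. Cdh26 averaged 0.691 ± 0.131 CPM (control), 1.13 ± 0.411 CPM (HD-het) and 0 ± 0 CPM (HD-homo) and was at least 6.26-fold below control in HD-homo cells.

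Non-clustered protocadherins, which have tails of their own and weak adhesion, included some of the clearest losses in HD-homo cells. Pcdh7 (chromosome 5, 57716145 to 58133236) had 36.6, 38.6 and 23.5 CPM in the control libraries, 78.4, 76.96 and 93.8 CPM in the HD-het libraries and 7.04, 4.63 and 5.41 CPM in the HD-homo libraries. The 3 lines did not overlap, with a rise of 1.33 (SE 0.18, adjusted p = 9.58e-05) in HD-het and a fall of -2.52 (SE 0.21, adjusted p = 1.91e-06) in HD-homo against control cells. Pcdh18 (chromosome 3, 49743291 to 49757383) had 89.3, 93.8 and 66.5 CPM in control, 78.9, 78.7 and 135 CPM in HD-het and 18.7, 18.4 and 16.1 CPM in HD-homo cells. HD-homo cells were 4.68-fold below control (log2 -2.23 with SE 0.21, adjusted p = 6.88e-06), while the HD-het libraries, of which replicate 3 was the high one, overlapped with control (adjusted p = 0.342). Pcdh19, an X-linked gene mutated in a form of epilepsy (chromosome X, 133582860 to 133689044), had 76.7, 84.0 and 57.8 CPM in control, 129, 135 and 176 CPM in HD-het and 81.7, 50.1 and 42.7 CPM in HD-homo cells.

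Pcdh19 was 2.01-fold above control in HD-het cells (log2 1.01 with SE 0.22, adjusted p = 0.00241), and its HD-homo libraries overlapped with control (adjusted p = 0.265). Pcdh1, on chromosome 18, was lower in both mutant lines, with 11.2, 14.7 and 7.37 CPM in control, 5.39, 4.62 and 5.01 CPM in HD-het and 6.37, 3.10 and 3.77 CPM in HD-homo cells. Its change was -1.16 (SE 0.28, adjusted p = 0.00369) in HD-het and -1.32 (SE 0.28, adjusted p = 0.00257) in HD-homo cells. Pcdh9 averaged 0.137 ± 0.0796 CPM (control), 1.80 ± 0.167 CPM (HD-het) and 0.0829 ± 0.00614 CPM (HD-homo), a rise of 3.78 in HD-het cells (adjusted p = 3.20e-06). Pcdh11x averaged 2.11 ± 0.840 CPM (control), 1.18 ± 0.314 CPM (HD-het) and 2.12 ± 1.10 CPM (HD-homo) and passed in no comparison. Pcdh8, Pcdh10, Pcdh12, Pcdh15, Pcdh17 and Pcdh20 stayed under 0.3 CPM in each line and did not pass the filter.

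Fat1, Fat3 and Fat4 rose in HD-het cells, and all 5 tested members of the FAT, Dachsous and CELSR group were lower in HD-homo cells than in HD-het cells. Fat1 (chromosome 8, 44933100 to 45052257) had 383, 437 and 262 CPM in the control libraries, 1297, 1446 and 2125 CPM in the HD-het libraries and 212, 141 and 245 CPM in the HD-homo libraries. HD-het was 4.50-fold above control (log2 2.17 with SE 0.25, adjusted p = 2.57e-05), and all HD-homo libraries lay below all control libraries. The fall in HD-homo cells, -0.86 (SE 0.24, adjusted p = 0.0137), did not pass without control replicate 2 (-0.69) or after correction for GC content and length (-0.41). After that correction the median of all genes was -0.14 in HD-het and -0.04 in HD-homo against control cells, where it was 0.02 in each before, and the correction called 24.3% of all genes higher and 39.1% lower in HD-het against control cells in place of 31.0% and 29.1%.

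Fat4, which binds Dchs1 on the facing cell (chromosome 3, 38884667 to 39011992), had 17.5, 20.3 and 11.3 CPM in control, 183, 223 and 291 CPM in HD-het and 6.67, 6.35 and 7.94 CPM in HD-homo cells. It was 14.2-fold above control in HD-het cells (log2 3.82 with SE 0.22, adjusted p = 2.25e-07) and 2.36-fold below control in HD-homo cells (log2 -1.24 with SE 0.22, adjusted p = 9.33e-04). Its partner Dchs1 (chromosome 7, 105752989 to 105788355) went down in both mutant lines, with 16.6, 20.3 and 12.5 CPM in control, 6.91, 7.07 and 7.75 CPM in HD-het and 0.362, 0.229 and 0.133 CPM in HD-homo cells. The fall was -1.19 (SE 0.18, adjusted p = 1.84e-04) in HD-het and -5.98 (SE 0.28, adjusted p = 2.00e-08) in HD-homo cells, 63.1-fold in the latter. Thus the pair moved in opposite directions in HD-het cells and in the same direction in HD-homo cells.

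Fat3 averaged 0.658 ± 0.125 CPM (control), 3.32 ± 0.630 CPM (HD-het) and 0.411 ± 0.229 CPM (HD-homo) and rose in HD-het cells (log2 2.33 with SE 0.29, adjusted p = 4.69e-05). Celsr2, a planar polarity receptor, averaged 4.89 ± 1.04 CPM (control), 1.63 ± 0.257 CPM (HD-het) and 0.181 ± 0.141 CPM (HD-homo). It fell in both mutant lines, by -1.60 (SE 0.26, adjusted p = 2.56e-04) in HD-het and -4.75 (SE 0.36, adjusted p = 9.83e-07) in HD-homo cells. Celsr1, Celsr3 and Fat2 did not pass the filter, and their highest line means were 0.332, 0.0689 and 0.697 CPM. Fat2 averaged 0.313, 0.147 and 0.697 CPM and so did not share the rise in HD-het cells.

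Snail, Slug and ZEB proteins repress cadherin genes through the 6 bases CAGGTG, and these letters, a form of the E-box CANNTG, were looked for on both strands of the 300 bases around annotated starts (250 before and 50 after) in the RefSeq promoter table for GRCm38.p6. The table holds 33 of the member genes, in 40 windows, of which 8 windows (20.0%) from 6 genes carry CAGGTG, against 20.2% of all 32851 windows. Of the 12 genes with a window that were lower in HD-homo cells than in control, 4 carry it. Of the 17 with a window that were higher in HD-het cells than in control, 3 carry it, namely Ctnna2, Fat1 and Pcdh7, which are also among those 4. These are counts of genes, not of windows, and the share of all genes that carry the motif was not computed. Snail and Slug footprints, given further down, rose in both mutant lines, and a link between them and these genes was not tested. The sites of the 4 genes are printed to show where the letters lie. Each line gives 30 bases on the strand of the gene, with the motif in capitals (CACCTG where it lies on the other strand). A match in letters says nothing of binding.
Celsr2 (chr3:108415592-108415621, minus strand, motif from position -30): cagtgggacgtaCAGGTGgcccccggggac
Celsr2 (chr3:108415734-108415763, minus strand, motif from position -172): acgctcagagcgCAGGTGgaagcgcagcgt
Ctnna2 (chr6:77979832-77979861, minus strand, motif from position -182): ccatggagacggCACCTGcgccctctgtgg
Fat1 (chr8:44950181-44950210, plus strand, motif from position -15): cttcttctattaCAGGTGgccaggagttaa
Pcdh7 (chr5:57718101-57718130, plus strand, motif from position 32): gcgggccgaatgCAGGTGagggaaggcacg
Positions count from the annotated start, with bases before it negative. The 2 Celsr2 sites lie in 1 window.

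The repressors themselves did not move as 1 group. Snai1, Snail, had 15.6, 15.7 and 13.6 CPM in control, 30.2, 24.2 and 26.5 CPM in HD-het and 39.3, 75.6 and 48.9 CPM in HD-homo cells, and Snai2, Slug, had 5.61, 5.45 and 5.72 CPM in control, 11.99, 12.6 and 16.0 CPM in HD-het and 22.6, 22.4 and 20.8 CPM in HD-homo cells. Both rose stepwise over the lines without overlap, by 0.85 and 1.86 (log2 against control, adjusted p = 0.00395 and 2.22e-05) for Snai1 and by 1.27 and 1.98 (adjusted p = 7.49e-06 and 2.13e-07) for Snai2. Twist1 averaged 12.3, 13.5 and 23.0 CPM and rose in HD-homo cells (0.90, adjusted p = 9.71e-04). Zeb1 averaged 72.8, 139 and 71.3 CPM, a rise in HD-het cells alone of the comparisons with control (0.93, adjusted p = 7.47e-06, and -0.03, adjusted p = 0.814, in HD-homo cells). Zeb2 averaged 26.2, 22.9 and 14.3 CPM and fell in HD-homo cells (-0.88, adjusted p = 3.15e-05). Foxc2 rose (2.23) and Tcf4 fell (-1.53) in HD-homo against control cells. Of the 12 repressors, 5 were higher and 2 lower in HD-het and 6 higher and 4 lower in HD-homo against control cells, with a median of -0.03 and 0.24. That is 58.3% and 83.3% called, against 60.1% and 45.7% of all genes.

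The beta-protocadherin genes, single-exon genes that follow each other on chromosome 18, had their highest mean in HD-het cells at each tested row. Of 22 rows, 12 passed the filter, and 12 were higher in HD-het cells than in control, where 31.0% of all genes were. A row that reached the filter through HD-het cells alone had to be higher there. In HD-homo cells 3 were higher than in control (23.3% of all genes), and the other 9 did not pass the threshold. Between the mutant lines 11 of the 12 were lower in HD-homo cells (32.8% of all genes). The summed level of all 22 rows was 8.29, 7.90 and 6.28 CPM in the control libraries, 34.9, 34.4 and 51.4 in HD-het and 12.4, 12.4 and 17.0 in HD-homo libraries, so the lines did not overlap.

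Pcdhb17 led the beta cluster in both mutant lines, with 0.687, 0.904 and 0.715 CPM in the control libraries, 15.6, 15.0 and 21.7 CPM in the HD-het libraries and 5.87, 5.43 and 7.63 CPM in the HD-homo libraries. It was 22.1-fold higher in HD-het (log2 4.46 with SE 0.22, adjusted p = 6.47e-08) and clearly higher in HD-homo cells than in control (log2 3.00 with SE 0.23, adjusted p = 1.09e-06). Pcdhb22, the leading row of control cells, had 3.78, 3.69 and 2.71 CPM in control, 5.39, 4.65 and 6.62 CPM in HD-het and 1.92, 2.18 and 2.97 CPM in HD-homo cells. Its rise in HD-het cells, 0.69 (SE 0.20, adjusted p = 0.0111), did not pass without HD-het replicate 3 (0.54) or after correction for GC content and length (0.25). The other beta rows above 1 CPM had lower levels. Pcdhb5 averaged 0.567, 1.97 and 0.4997 CPM, Pcdhb14 0.305, 1.52 and 0.208 CPM, Pcdhb16 0.219, 1.72 and 1.08 CPM and Pcdhb18 0.282, 2.95 and 0.305 CPM. Pcdhb19 averaged 0.610, 1.35 and 0.683 CPM, Pcdhb20 0.361, 1.32 and 0.571 CPM and Pcdhb21 0.319, 3.37 and 0.913 CPM. Besides Pcdhb17, the beta rows raised in HD-homo against control cells were Pcdhb16 (2.29, adjusted p = 0.00317) and Pcdhb21 (1.52, adjusted p = 0.00505). Beta rows other than Pcdhb1, which shares none, share 6.37% to 25.4% of their 28-base words with other genes, so some fragments cannot be placed uniquely.

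**Figure D3:**
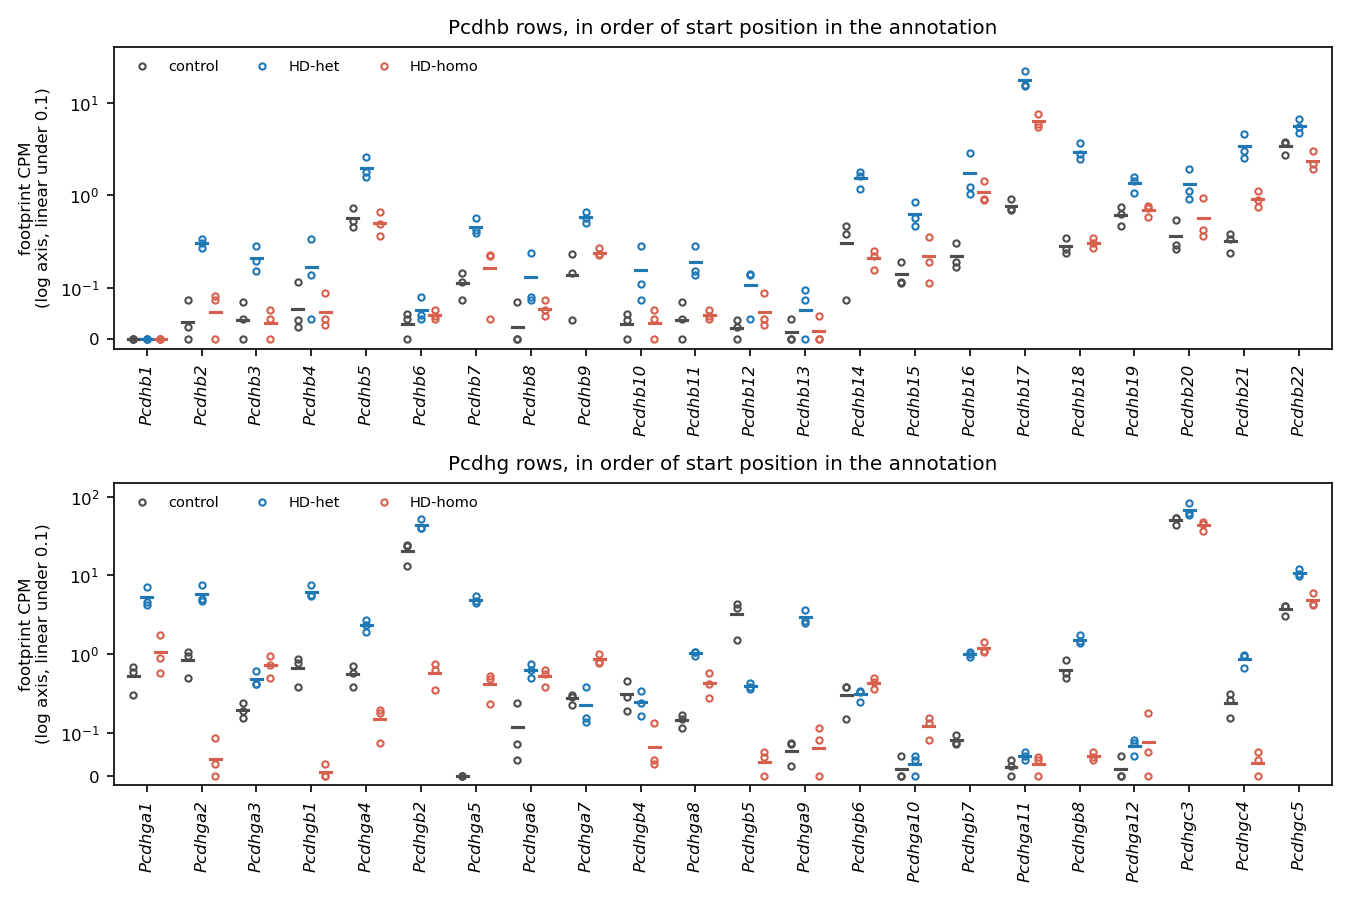
Footprint CPM of each library (open circles) and line means (bars) for the 22 Pcdhb rows (top) and 22 Pcdhg rows (bottom), ordered by start position, on an axis that is logarithmic above 0.1 and linear below. In the beta cluster HD-het is the highest line at each tested row. In the gamma cluster Pcdhgc3 leads in each line, and several other rows differ between the lines.

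In the gamma cluster the leading row, Pcdhgc3, was the same in each line, and several rows below it differed between the lines. These genes join 1 variable exon each to shared constant exons on chromosome 18. Of 22 rows, 18 passed the filter; 15 were higher and 1 lower in HD-het cells than in control (31.0% and 29.1% of all genes), and 6 were higher and 7 lower in HD-homo cells than in control (23.3% and 22.3%). The filter bears on these rows as on the beta rows. Rows share 24.8% to 59.4% of their 28-base words with other genes, mostly in the constant exons, and how such fragments were assigned is not given in the sources used here. Fragments of the constant exons were not added to each row, since Pcdhga5 had 0 counts in every control library while Pcdhgc3 was high there. Whether they were counted in some rows and not in others is unknown, and the levels and shares of rows depend on it.

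Pcdhgc3, a C-type isoform, was the leading row in each line, with 53.4, 53.4 and 43.3 CPM in the control libraries, 59.4, 62.1 and 82.2 CPM in the HD-het libraries and 47.9, 37.2 and 45.1 CPM in the HD-homo libraries. HD-homo cells lay below HD-het cells (log2 -0.65 with SE 0.14, adjusted p = 0.00194) and overlapped with control (adjusted p = 0.264). The rise in HD-het cells, 0.44 (SE 0.14, adjusted p = 0.0200), did not pass without control replicate 3 (0.34), without HD-het replicate 3 (0.26) or after correction for GC content and length (0.23). Pcdhgb2 was second in control and HD-het cells and nearly lost in HD-homo cells, with 23.8, 24.0 and 13.3 CPM in control, 39.5, 39.7 and 51.8 CPM in HD-het and 0.751, 0.344 and 0.621 CPM in HD-homo cells. The loss was 34.6-fold against control (log2 -5.11 with SE 0.31, adjusted p = 1.91e-07).

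Shares within the cluster differed as well, and a share also moves with the other rows. Pcdhgb2 held 24.4 ± 3.24% of the gamma counts (control), 27.9 ± 0.338% (HD-het) and 1.02 ± 0.254% (HD-homo), and Pcdhgc3 held 61.4 ± 4.95%, 43.3 ± 0.692% and 78.8 ± 0.515% (SD, n = 3). Control replicate 3, with 67.1% for Pcdhgc3, stood apart from the other control libraries at 58.5% and 58.6%. The summed level of the 22 rows was 82.4 ± 15.4 CPM (control), 156.5 ± 26.7 (HD-het) and 55.1 ± 7.38 (HD-homo).

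**Figure D4:**
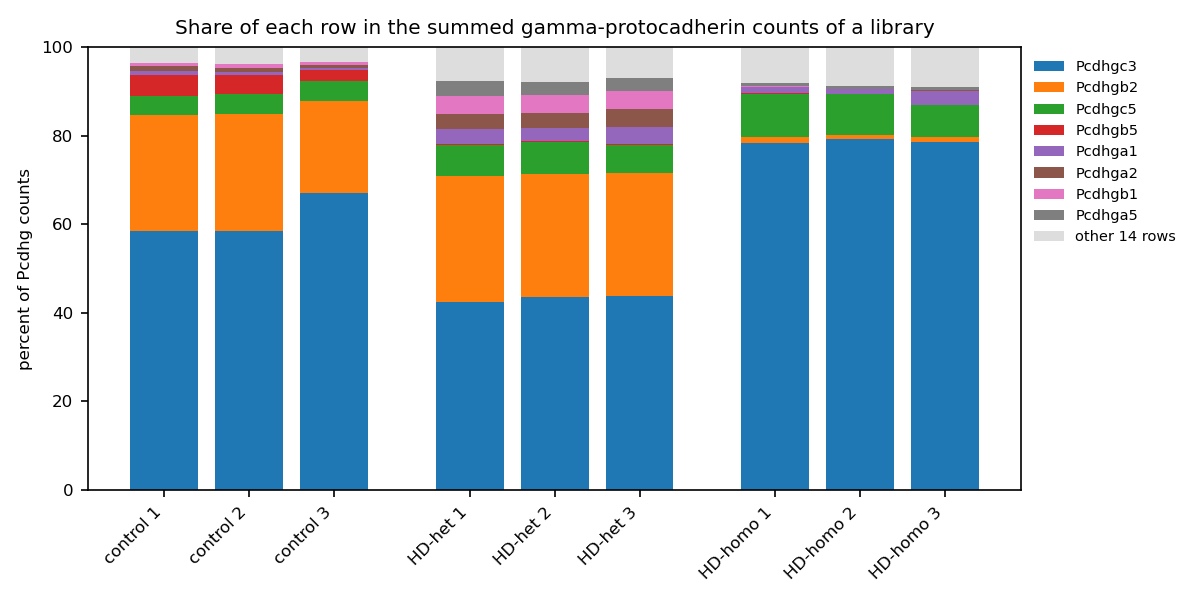
Share of single rows in the summed gamma-protocadherin counts of each library, in percent, stacked to 100 with the other 14 rows in grey. Pcdhgb2 (orange) is the second share in control and HD-het cells and about 1% in HD-homo cells, and Pcdhgb5 (red) is a clear band in control libraries alone.

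Several gamma rows were highest in HD-het cells. Pcdhga1 had 0.687, 0.595 and 0.301 CPM in control, 4.55, 4.23 and 7.04 CPM in HD-het and 0.890, 0.573 and 1.73 CPM in HD-homo cells, Pcdhga2 1.07, 0.951 and 0.489 CPM in control, 4.97, 4.73 and 7.56 CPM in HD-het and 0.0278, 0 and 0.0887 CPM in HD-homo cells, and Pcdhgb1 0.764, 0.856 and 0.376 CPM in control, 5.54, 5.61 and 7.52 CPM in HD-het and 0.0278, 0 and 0 CPM in HD-homo cells. In each of these rows the HD-het libraries were the highest without overlap, at 3.28, 2.75 and 3.17 (log2 against control, adjusted p = 2.62e-05, 1.80e-05 and 3.03e-06). In HD-homo cells Pcdhga2 was at least 7.58-fold and Pcdhgb1 at least 6.03-fold lower than in control. Pcdhga5, with means of 0 ± 0 CPM (control), 4.88 ± 0.533 CPM (HD-het) and 0.415 ± 0.162 CPM (HD-homo), exceeded control at least 49.0-fold in HD-het and at least 4.17-fold in HD-homo cells. Pcdhga9 averaged 0.0585, 2.93 and 0.0660 CPM, at least 29.4-fold above control in HD-het cells.

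Pcdhgb5 was the tested gamma row that fell in HD-het cells, averaging 3.20 ± 1.48 CPM (control), 0.387 ± 0.0347 CPM (HD-het) and 0.0333 ± 0.0294 CPM (HD-homo). It fell there (log2 -3.06 with SE 0.41, adjusted p = 7.79e-05) and was at least 28.9-fold below control in HD-homo cells. Pcdhgb7 was raised in both mutant lines, at 0.0822, 0.988 and 1.20 CPM (3.48 and 3.78, adjusted p = 5.53e-06 and 2.18e-06). Pcdhga8 averaged 0.144, 1.03 and 0.425 CPM and was also raised in both. Pcdhga4 and Pcdhgb8 averaged 0.554, 2.33 and 0.150 CPM and 0.633, 1.52 and 0.0461 CPM, up in HD-het and down in HD-homo against control cells. Pcdhgc5, the C-type isoform known from mature neurons, had 4.09, 4.11 and 3.01 CPM in control, 9.79, 10.3 and 12.1 CPM in HD-het and 6.01, 4.36 and 4.21 CPM in HD-homo cells and rose in HD-het cells (log2 1.51 with SE 0.18, adjusted p = 2.68e-05). Under 1 CPM in each line, Pcdhga7 was the tested gamma row that was higher in HD-homo cells than in HD-het cells.

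Alpha-protocadherins were hardly detected. Of 14 rows, 9 had no count in any library, and the whole cluster held 0 to 2 counts in a control library, 8 to 27 in an HD-het library and 1 or 2 in an HD-homo library. Pcdhac2 reached 0.320 CPM in HD-het cells, and none of the 14 passed the filter. The other members with no count in any library were Cdh19, the cadherin of Schwann cell precursors, and Pcdhb1. Cdh5, the cadherin of endothelium, averaged 0.327, 0.198 and 0.244 CPM and did not pass the filter.

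Junction partners of the cadherins were mostly lower in HD-homo cells. Of 32 tested adherens junction partners, 15 were higher and 9 lower in HD-het (75.0% called, against 60.1% of all genes) and 2 higher and 18 lower in HD-homo against control cells (62.5%), with medians of 0.27 and -0.43. Of all genes, 23.3% were higher and 22.3% lower in the latter comparison. Ptprk, a receptor phosphatase, averaged 233, 531 and 72.0 CPM. Nectin3, an adhesion protein that works beside cadherins, averaged 34.9, 78.9 and 13.4 CPM, and Vcl, vinculin, 1305, 2299 and 641 CPM, each higher in HD-het and lower in HD-homo cells than in control. Ptprf averaged 47.9, 134 and 36.9 CPM and rose in HD-het cells (1.48, adjusted p = 3.72e-04).

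Of the desmosomal cadherins and plaque proteins, 6 of 15 were tested, with 2 higher and 2 lower in HD-het and 2 higher and 4 lower in HD-homo against control cells (medians 0.06 and -1.0), beside 60.1% and 45.7% of all genes called in either direction. Jup, plakoglobin, the closest relative of beta-catenin, had 179.9, 191 and 180.2 CPM in control, 270.0, 246 and 245 CPM in HD-het and 133, 123 and 78.8 CPM in HD-homo cells. It followed Ctnna1 in direction, 0.47 in HD-het (adjusted p = 0.0210) and -0.72 in HD-homo cells (adjusted p = 0.00284). Pkp1 averaged 62.0, 158 and 14.4 CPM, Pkp2 64.4, 52.1 and 19.3 CPM and Perp 73.6, 78.3 and 30.2 CPM, all lower in HD-homo cells than in control, while Dsp, desmoplakin, averaged 15.6, 15.9 and 61.7 CPM and rose there (1.99, adjusted p = 4.54e-05).

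The genes that degrade beta-catenin moved in both directions. Of 19 tested, 5 were higher and 4 lower in HD-het and 5 higher and 6 lower in HD-homo against control cells, with medians of -0.11 and -0.07 (47.4% and 57.9% called, against 60.1% and 45.7% of all genes). Apc, its scaffold, averaged 38.8, 45.8 and 28.1 CPM and was lower in HD-homo cells than in control (-0.46, adjusted p = 0.00463). Amer1 averaged 4.93, 10.9 and 4.45 CPM, Csnk1e 72.9, 46.3 and 86.7 CPM and Ppp2r5a 24.9, 28.3 and 17.0 CPM.

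For planar polarity genes and partners of FAT and Dachsous, 11 of 25 were higher and 3 lower in HD-het, and 5 higher and 12 lower in HD-homo against control cells (medians 0.23 and -0.33). Called were 56.0% and 68.0% of them, and 60.1% and 45.7% of all genes. Prickle2 averaged 2.23, 13.8 and 3.92 CPM and Ror2 6.90, 26.4 and 14.7 CPM, both raised in both mutant lines. Lats2, a Hippo kinase, averaged 16.2, 38.8 and 16.8 CPM and Daam1 53.8, 35.4 and 23.5 CPM.

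Of 13 tested proteases and subunits that cut cadherins and protocadherins, 9 were higher and 1 lower in HD-het and 1 higher and 7 lower in HD-homo against control cells (medians 0.84 and -0.41), where 31.0% of all genes were higher in the former and 22.3% lower in the latter. Adam10, the main sheddase of Cdh2, averaged 106, 235 and 91.8 CPM, with a rise of 1.14 (SE 0.19, adjusted p = 3.47e-04) in HD-het cells and an adjusted p of 0.397 in HD-homo cells. Mmp14 averaged 194, 610.1 and 99.0 CPM, Bace1 16.8, 39.5 and 7.46 CPM, Ncstn 101, 243 and 76.1 CPM and Pcsk6 5.85, 16.4 and 9.74 CPM.

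Of the regulators of the clustered protocadherin locus, 3 of 17 were higher and 4 lower in HD-het, and 2 higher and 1 lower in HD-homo against control cells (41.2% and 17.6% called, below the 60.1% and 45.7% of all genes, medians -0.11 and -0.03). Ctcf, which loops the chosen promoters to their enhancer, averaged 95.4, 88.7 and 97.6 CPM and passed in no comparison. Smchd1, a silencer of the locus, averaged 183, 156 and 132 CPM and was lower in HD-homo cells than in control (-0.47, adjusted p = 0.00219). Dnmt3a averaged 8.88, 22.3 and 6.91 CPM and was raised in HD-het cells (1.33), and Rest was raised in both mutant lines (0.40 and 0.56). Smc3 averaged 425, 282 and 387 CPM and Stag2 108, 139 and 94.3 CPM.

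Of the calsyntenins and cadherin-related genes, 6 of 14 were tested, with 3 higher and 1 lower in HD-het and 2 lower and 4 not past the threshold in HD-homo against control cells (66.7% and 33.3% called, against 60.1% and 45.7% of all genes). Cadm1, a synaptic adhesion molecule of the immunoglobulin family, averaged 112 ± 23.6 CPM (control), 283 ± 10.8 CPM (HD-het) and 1.48 ± 0.172 CPM (HD-homo). It fell in HD-homo against control cells by -6.22 (SE 0.19, adjusted p = 8.17e-10). Clstn1 averaged 205, 365 and 117 CPM.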

How the data were processed

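Per the labels, ribosome-protected RNA was recovered from the 80S fraction of nuclease-treated lysates and sequenced as small RNA. The authors deposited raw footprint counts, with gene symbols as rows and each library in a column of its own, neither scaled nor pooled. The submitters' processing notes name cutadapt, Bowtie 1.0.1 and build mm10, and the counting program, its annotation and its use of strand are not given in the sources used here. Column names gave the sample of each of the 9 columns. No mRNA libraries were used, so levels are of footprints, without division by mRNA. Levels between genes were compared per kilobase of coding sequence. For alpha and gamma protocadherins this was the coding part that no other gene shares.

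From the counts, CPM were computed on TMM-scaled totals, and lines were compared by edgeR 4.0.16 (quasi-likelihood F test, in R 4.3.3 with limma 3.58.1), with the filterByExpr filter, line means as the only terms and all 9 libraries in 1 fit, 12678 genes in all. The threshold was an adjusted p of 0.05 (Benjamini-Hochberg, all genes tested). The procedure was first tested on simulated data. The study's methods state no count test per gene. Where all 3 libraries of a line held at most 3 counts, the limit that a count of 0 allows, a fold is given as a bound against 3 counts per library, averaged over the line. This limit covers counting error only, since amplified fragments are not independent molecules. Coordinates, coding lengths and 28-base words came from RefSeq GRCm38.p6 and GENCODE M21, and words shared between gene rows were counted over annotated transcripts.

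Members, family lists, 8 partner lists and 10 marker lists were chosen with earlier results of these data known. Values in every library are given for members with a mean of at least 5 CPM in 1 line and for each catenin, and line means for members between 1 and 5 CPM. From each partner list at most 4 genes are named, those with the largest change past the threshold and at least 10 CPM in the higher line, plus Snai1, Snai2, Twist1, Zeb1, Zeb2, Jup, Apc, Adam10, Ctcf and Smchd1. Alternatives were RLE size factors, total counts, DESeq2 1.42.0, testing every gene with a count, a minimum of 10 counts per library, separate fits of each pair of lines, a replicate block, an adjusted p under 0.01, a change of at least 2-fold, offsets for GC content and transcript length (loess, span 0.5, values for 96.9% of genes), and leaving out each library.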

Additional observations from a re-analysis of the deposited data

Results flagged for a closer look

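These members were picked out because HD-het and HD-homo cells departed from control in opposite directions, each past the threshold, and the direct comparison of the mutant lines also passed (edgeR, adjusted p at most 3.92e-05). The comparisons with control share the control libraries, so the direct comparison is given, as the fitted log2 difference of HD-homo minus HD-het. Among cadherins it was -3.67 for Cdh1, -3.76 for Cdh2, -6.16 for Cdh10, -6.27 for Cdh23 and -1.53 for Cdh24. Cdh3 was the reverse case, at 7.59. Among catenins it was -0.97 for Ctnna1, -1.35 for Ctnna2, -1.30 for Ctnna3 and -5.08 for Ctnnd2. Among FAT and non-clustered protocadherins it was -3.03 for Fat1, -5.06 for Fat4 and -3.85 for Pcdh7. In the gamma cluster it was -7.17 for Pcdhga2, -3.89 for Pcdhga4, -8.59 for Pcdhgb1, -6.21 for Pcdhgb2, -4.88 for Pcdhgb8 and -4.47 for Pcdhgc4. For Cdh3, Pcdhga2, Pcdhgb1, Pcdhgb8 and Pcdhgc4, 1 line was at or near 0 counts, and the fitted values depend on the prior count of the fit. Counts in the HD-homo libraries were also low for Ctnnd2 (6, 1 and 0) and Cdh23 (5, 3 and 3). Over the alternative fits their differences lay at -6.87 to -4.65 and at -6.35 to -5.57. All direct differences but that of Cdh3 ran towards lower HD-homo levels. Alternative fits were followed gene by gene only for members given by library, which leaves out Cdh3, Pcdhga4, Pcdhgb8 and Pcdhgc4. Among the rest, 4 members had 1 of their calls against control lost under these alternative fits, as given in the report. These were the rise of Cdh1 in HD-het cells, and the falls of Ctnna2, Ctnna3 and Fat1 in HD-homo cells. Each was lost without at least 1 single library and, except for Ctnna3, also with the GC content and length offsets. No group had enough libraries for a test of outlying samples.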

How the results depend on the processing

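Among the 93 fitted changes of the 31 members given by library, 76 passed the threshold. Of these, 69 kept direction and call under every alternative fit that could be run for them. The other 7 were lost under at least 1 alternative fit, none turned direction, and their values stand beside them in the report. The stricter limit on adjusted p and the limit on fold change were applied only to the numbers of members called, not to these single changes. Of the 17 changes that did not pass, 8 passed in the same direction under at least 1 alternative. The fall of Cdh13 in HD-homo against control cells (-0.60, adjusted p = 0.0551 by edgeR) passed under 6. The number of members called moved most with a minimum of 10 counts in every library, which tested 25 members and gave 19 higher and 1 lower in HD-het against control, 3 higher and 10 lower in HD-homo against control, 1 higher and 20 lower in HD-homo against HD-het, and 23 with any difference among the lines. Of all genes tested with this minimum, 59.5%, 42.3% and 65.8% were called in the comparisons of pairs of lines, in the same order. The members higher in HD-homo against HD-het cells numbered 5 with no filter, 6 with GC content and length offsets, and 3 to 5 when single libraries were left out (5 without HD-homo replicate 2), in place of 3.

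Leaving out 1 library at a time gave 44 to 48 higher and 5 to 6 lower members in HD-het against control, 12 to 15 and 21 to 26 in HD-homo against control, and 47 to 50 lower in HD-homo against HD-het cells. Changes that turned direction were all short of the threshold. Cdh11 in HD-homo against control gave -0.076 with the replicate block, and -0.47 to 0.38 over the left-out libraries, the lowest without HD-homo replicate 3. Cdh13 in HD-het against control gave -0.049 with GC content and length offsets, and -0.090 to 0.29 over the left-out libraries. Ctnnd1 in HD-homo against control gave -0.016 with no filter, -0.0011 in the fit of 6 libraries, and -0.065 to 0.089 over the left-out libraries. Pcdh1 in HD-homo against HD-het gave 0.18 with the offsets and -0.54 to 0.054 over the left-out libraries, and Pcdh18 in HD-het against control -0.16 and -0.10 to 0.35. The cause of these shifts was not tested.

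Replicate numbers did not pair the libraries: the deviations of same-numbered libraries correlated between -0.325 and 0.166 across genes, and control replicate 2 went best with HD-homo replicate 1 (0.340). With the replicate block the members called were 48 higher and 5 lower, 12 and 24, and 3 and 49 in the 3 comparisons, the same numbers as without it. A count of 3, the limit that a count of 0 allows, came to 0.0714 to 0.142 CPM over the libraries, and differences below it were not detectable at this depth. Length and GC content moved the folds of the large FAT and Dachsous genes by over 1.5 times (Fat1 -2.17, Fat4 -4.20 and Dchs1 -4.08 in HD-homo against HD-het with the offsets), as they did for Cdh6 (4.16), Cdh23 (-5.57), Pcdh7 (-3.19) and Pcdh19 (-0.61), all still past the threshold. Without HD-homo replicate 1 the same comparison gave -4.27 for Cdh1, -6.87 for Ctnnd2 and -10.46 for Pcdhgb1, and without HD-homo replicate 3 it gave -8.14 for Pcdhga2.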
